A study of Mus musculus with 6 samples.

Results

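The genes described here are 10 genes of supporting cell identity and Notch signalling in the organ of Corti, the sensory epithelium of the cochlea. They are the transcription factor genes Sox2, Prox1 and Gata3, the receptor genes Fgfr3 and Lgr5, the Notch ligand Jag1, the receptor Notch1, the Notch effectors Hes1 and Hey2, and the proteoglycan gene Epyc. They were chosen by name for this role, by a rule that uses no measured value, though with earlier results of these data known. All 10 were found by gene identifier among the 48709 mouse gene rows of the count table. RNA was sequenced from cochleae of 3 knock-in mice and 3 wild-type littermates, 1 library a mouse. Knock-in mice were homozygous for an Hgf allele (Hgf del10Neo/del10Neo) that lacks 10 bp of intron 5 and carries a Neo selection cassette, and wild-type mice were Hgf+/+. The strain is a mouse model of the human recessive deafness DFNB39. All mice were untreated as far as the labels say and were 5 to 27 weeks old, with no age given for a single animal.

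Supporting cells (Deiters, pillar, phalangeal and border cells) surround the hair cells of the organ of Corti and descend from the same Sox2-positive precursors. During development a nascent hair cell presents Delta and Jagged ligands to its neighbours. In those cells, cleavage of Notch releases an intracellular domain that joins RBPJ on DNA and turns on genes of the Hes and Hey families, which hold the neighbours in the supporting cell fate. In the mature cochlea most of this signalling is reduced, while several identity genes, Sox2 and Prox1 among them, stay on in supporting cells. Most of the 10 genes are also used by other cells that a dissected cochlea holds, such as vessels, lymphatics, nerve and cartilage, so the whole-tissue values below sum over cell types.

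Libraries held 24005234 to 42312291 gene counts. Hgf, the targeted gene, was at 9.24, 10.4 and 10.5 CPM (counts scaled to a common library total by the TMM method) in knock-in libraries, against 15.4, 16.3 and 15.2 CPM in wild-type libraries, with no overlap. Its log2 fold change was -0.63 (SE 0.111) and did not pass the threshold of 0.05 (edgeR quasi-likelihood test, Benjamini-Hochberg adjusted p = 0.246). That call depended on the processing: Hgf passed with no filter on low counts (edgeR quasi-likelihood adjusted p = 0.0380) and in DESeq2 on the same counts (adjusted p = 0.0116). The Neo sequence had 71 and 199 counts in knock-in replicates 1 and 2 but 5 counts in the library labelled knock-in replicate 3, against 5, 8 and 10 counts in wild-type libraries. The library labelled knock-in replicate 3 thus stood at the wild-type level of Neo while its Hgf level lay with the other knock-in libraries. Values without this library are given for the 10 genes and for some counts and values of the other lists. Without it the log2 fold change of Hgf was -0.67 (edgeR quasi-likelihood adjusted p = 0.535). It also lay at the opposite end of the first principal component (34.7% of the variance) from wild-type replicate 1.

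None of the 10 genes passed the test between the groups, with estimated folds of 0.879 for Hes1 to 1.15 for Hey2, knock-in over wild type. All 10 passed the filter on low counts, with 74 to 4349 counts in a library. By edgeR's quasi-likelihood test, with p-values adjusted after Benjamini and Hochberg, 0 of 10 were called, against 0.0338% of the 20733 genes tested, 7 genes in all. At an unadjusted p under 0.05 the count was also 0 of 10, against 4.50% of all genes (2.54% higher and 1.96% lower in knock-in). DESeq2 called 0 of 10 (0.116% of all genes) and limma-voom 0 of 10 (0.0386%), and the authors' deposited table lists an adjusted p of 1 for each of them, with 34 genes (0.181%) under 0.05. Without the library labelled knock-in replicate 3, edgeR called 0 of 10 and 0.0142% of all genes, and 0 of 10 were at an unadjusted p under 0.05, against 3.88% of all genes. The knock-in and wild-type libraries overlapped in CPM for all 10 genes, whereas they did not overlap for 8.72% of all genes tested (knock-in above in 4.71% and below in 4.01%). Without the library labelled knock-in replicate 3, Gata3 alone of the 10 did not overlap, beside 18.2% of all genes in that smaller set. In 6 genes the log2 fold change was positive, Gata3 at a rounded 0.00 among them, and in 4 negative. Over all genes tested 50.2% were positive. The median was 0.02, beside 0.000822 over all genes tested.

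The 95% intervals describe how large a difference in whole tissue could be, for each gene taken singly. They are not adjusted for the number of genes, and they include the library labelled knock-in replicate 3. The log2 fold changes ran from -0.19 for Hes1 to 0.21 for Hey2. All 10 intervals of 95% held 0, and their outermost bounds were -0.61 and 0.66, which correspond to folds of 0.654 and 1.58. The narrowest interval was that of Jag1, from -0.26 to 0.20, and the widest that of Sox2, from -0.39 to 0.66. The median standard error was 0.169 for the 10 genes and 0.161 over all genes tested. Differences inside these intervals are not excluded by these data, with 3 libraries a group. In whole tissue, fewer cells of a type and less RNA per cell cannot be told apart.

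**Figure D1:**
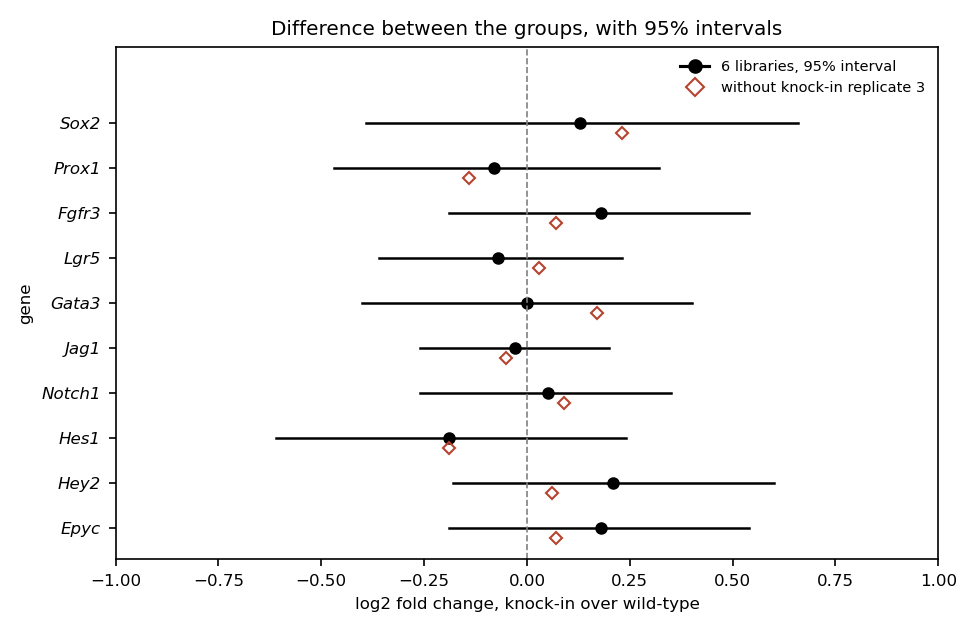
Log2 fold changes of the 10 genes, knock-in over wild type, from edgeR's quasi-likelihood fit; filled points and lines give the estimate and 95% interval with all libraries (n = 3 each), and open diamonds the estimate without the library labelled knock-in replicate 3. All intervals cross 0, and the estimates with all libraries lie between -0.19 and 0.21.

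The first group of genes carries the Notch signal. Jag1 encodes the membrane-bound ligand Jagged1, which acts in prosensory specification and remains in supporting cells; the gene (ENSMUSG00000027276) lies on the minus strand of GRCm38 at chr2:137081456-137116644. It had 41.0, 47.2 and 45.9 CPM in knock-in libraries, against 46.4, 48.3 and 42.2 CPM in wild-type libraries. Lowest was knock-in replicate 1 and highest wild-type replicate 2, and the groups lay over each other. Jag1 averaged 44.7 ± 3.26 CPM in knock-in and 45.6 ± 3.08 CPM in wild type (SD, n = 3 each), a log2 fold change of -0.03 (SE 0.101; edgeR quasi-likelihood adjusted p = 0.988). Without the library labelled knock-in replicate 3 it was -0.05.

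Notch1 (ENSMUSG00000026923, chr2:26457903-26516663, minus strand) encodes the receptor that carries lateral inhibition in the organ of Corti and also acts in endothelium and lymphocytes. It had 105, 93.4 and 90.1 CPM in knock-in libraries, against 113, 86.8 and 79.9 CPM in wild-type libraries. Both the highest and the lowest library were wild type, so the knock-in values fell inside the wild-type range. The means were 96.0 ± 7.57 CPM in knock-in and 93.1 ± 17.2 CPM in wild type (SD, n = 3 each), and the log2 fold change was 0.05 (SE 0.135; edgeR quasi-likelihood adjusted p = 0.988), or 0.09 without the library labelled knock-in replicate 3.

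Hes1 (ENSMUSG00000022528, chr16:30064384-30067796, plus strand) encodes a basic helix-loop-helix repressor that Notch switches on in many tissues. It had 13.2, 13.5 and 13.5 CPM in knock-in libraries, against 20.5, 11.4 and 14 CPM in wild-type libraries. The knock-in libraries lay close together, with a coefficient of variation of 1.28%, while the wild-type ones were spread by 30.5%, mostly through the high value of wild-type replicate 1. Hes1 averaged 13.4 ± 0.172 CPM in knock-in and 15.3 ± 4.68 CPM in wild type (SD, n = 3 each), the most negative log2 fold change of the 10 at -0.19 (SE 0.190; edgeR quasi-likelihood adjusted p = 0.972). Without wild-type replicate 1 the log2 fold change was 0.07, the opposite sign, and without the library labelled knock-in replicate 3 it was -0.19.

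Hey2 (ENSMUSG00000019789, chr10:30832359-30842801, minus strand) encodes a related repressor that marks pillar cells and is also active in arteries. It had 7.46, 6.62 and 9.28 CPM in knock-in libraries, against 5.59, 7.50 and 7.05 CPM in wild-type libraries. The library labelled knock-in replicate 3 was highest and wild-type replicate 1 lowest, and the other 4 libraries interleaved. The means were 7.78 ± 1.36 CPM in knock-in and 6.71 ± 1.0 CPM in wild type (SD, n = 3 each), the most positive log2 fold change of the 10 at 0.21 (SE 0.174; edgeR quasi-likelihood adjusted p = 0.966). It was 0.06 without the library labelled knock-in replicate 3.

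Hes and Hey genes can be reached by Notch through RBPJ, a step that was not measured here. The sequence upstream of Hey2, the one of the 10 genes with the most positive log2 fold change, is shown. Promoter windows were taken from RefSeq on GRCm38.p6, which held 8 of the 10 genes; Hes1 and Lgr5 had none in that table. The RBPJ core letters TGGGAA were searched on both strands in the 250 bases before each annotated start, with TTCCCA as the reverse complement; the motif cannot overlap its own complement. Of 11 windows of the 8 genes, 2 held it, 1 of Hey2 and 1 of the alternative starts of Prox1, against 21.6% of 32851 windows of all genes. For Sox2 and Prox1, unlike Hey2, the bases after the start were not found in an annotated transcript of the gene. The Prox1 match thus lies in a window whose start was not borne out. The stretch before the Hey2 start, chr10:30842802-30843033 on the minus strand, is printed 5′ to 3′ with its 1 match in capitals; 20.2% of all windows of that length hold the letters.
Hey2: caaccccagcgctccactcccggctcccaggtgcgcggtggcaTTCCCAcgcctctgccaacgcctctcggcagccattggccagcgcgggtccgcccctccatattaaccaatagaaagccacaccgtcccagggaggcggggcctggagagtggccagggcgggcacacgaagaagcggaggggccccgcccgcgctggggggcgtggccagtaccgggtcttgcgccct
A match of letters is a description and not a measured binding site, and Hey2, whose window holds it, was not called.

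The next genes hold supporting cell identity. Sox2 (ENSMUSG00000074637, chr3:34650405-34652461, plus strand) encodes an HMG-box factor that specifies the prosensory domain and persists in adult supporting cells; it also marks glia. It had 5.49, 4.85 and 4.03 CPM in knock-in libraries, against 2.97, 5.55 and 4.56 CPM in wild-type libraries. The extremes were again both wild type, replicate 1 at the bottom and replicate 2 at the top. The means were 4.79 ± 0.733 CPM in knock-in and 4.36 ± 1.30 CPM in wild type (SD, n = 3 each), a log2 fold change of 0.13 (SE 0.233; edgeR quasi-likelihood adjusted p = 0.982). Without wild-type replicate 1 it was -0.07, and without the library labelled knock-in replicate 3 it was 0.23.

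Prox1 (ENSMUSG00000010175, chr1:190118035-190170714, minus strand), a homeobox gene of Deiters and pillar cells and of lymphatic endothelium, had 7.61, 8.67 and 9.15 CPM in knock-in libraries, against 6.71, 10.5 and 9.53 CPM in wild-type libraries. The knock-in libraries lay inside the wild-type range. Prox1 averaged 8.47 ± 0.788 CPM in knock-in and 8.90 ± 1.95 CPM in wild type (SD, n = 3 each), with a log2 fold change of -0.08 (SE 0.176; edgeR quasi-likelihood adjusted p = 0.984), or -0.14 without the library labelled knock-in replicate 3.

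Gata3 (ENSMUSG00000015619, chr2:9857078-9890034, minus strand) encodes a zinc-finger factor needed for inner ear development, whose loss of 1 copy causes deafness with hypoparathyroidism and renal disease in people, and which T cells also use. It had 8.69, 9.11 and 5.81 CPM in knock-in libraries, against 8.12, 8.24 and 7.36 CPM in wild-type libraries. Knock-in replicates 1 and 2 lay above all wild-type libraries and the library labelled knock-in replicate 3 below them. The means were 7.87 ± 1.80 CPM in knock-in and 7.91 ± 0.480 CPM in wild type (SD, n = 3 each), a log2 fold change of 0.00 (SE 0.177; edgeR quasi-likelihood adjusted p = 1). Without the library labelled knock-in replicate 3 it was 0.17, and the adjusted p in the same test was 0.999.

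**Figure D2:**
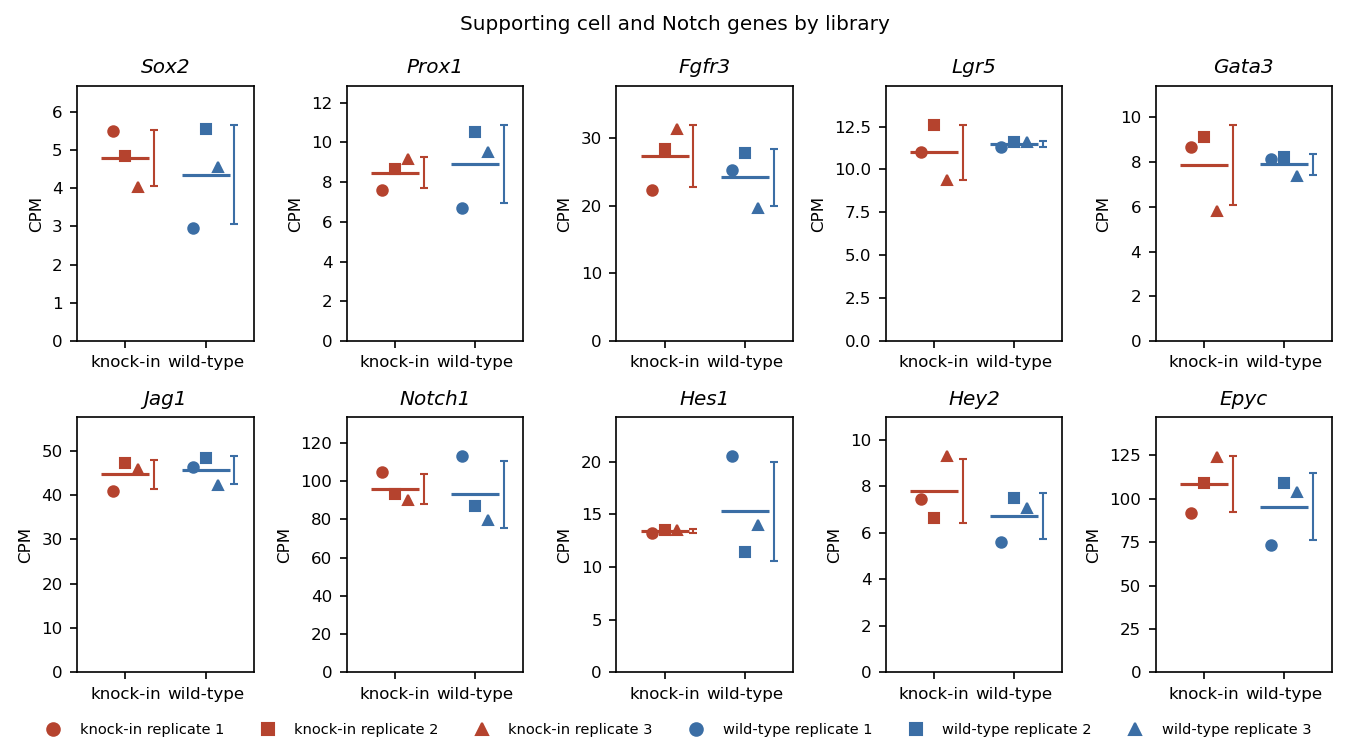
TMM-scaled CPM of the 10 genes in each library, knock-in left of wild type in each panel, with points for libraries, a horizontal line for the mean and an error bar for the SD (n = 3 each); each panel has its own axis from 0. The groups overlap in every panel, and the single low or high points (wild-type replicate 1 in Sox2 and Hes1, the library labelled knock-in replicate 3 in Gata3) can be picked out.

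A pair of receptor genes marks subsets of supporting cells. Fgfr3 (ENSMUSG00000054252, chr5:33721674-33737068, plus strand) encodes a fibroblast growth factor receptor that directs pillar cell differentiation and restrains growth of cartilage. It had 22.3, 28.4 and 31.3 CPM in knock-in libraries, against 25.2, 27.8 and 19.6 CPM in wild-type libraries. The top library was the one labelled knock-in replicate 3 and the bottom one wild-type replicate 3. Its means were 27.3 ± 4.56 CPM in knock-in and 24.2 ± 4.19 CPM in wild type (SD, n = 3 each), a log2 fold change of 0.18 (SE 0.163; edgeR quasi-likelihood adjusted p = 0.971), or 0.07 without the library labelled knock-in replicate 3.

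Lgr5 (ENSMUSG00000020140, chr10:115450311-115587780, minus strand) encodes an R-spondin receptor that amplifies Wnt signalling and marks supporting cells able to divide in the newborn cochlea. It had 11.0, 12.6 and 9.41 CPM in knock-in libraries, against 11.3, 11.6 and 11.6 CPM in wild-type libraries. The wild-type libraries had a coefficient of variation of 1.42% and sat inside the wider knock-in range, spread by 14.6%. The means were 11.0 ± 1.61 CPM in knock-in and 11.5 ± 0.163 CPM in wild type (SD, n = 3 each), a log2 fold change of -0.07 (SE 0.132; edgeR quasi-likelihood adjusted p = 0.984), and 0.03 without the library labelled knock-in replicate 3.

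Epyc (ENSMUSG00000019936, chr10:97644068-97682454, plus strand) encodes epiphycan, a small leucine-rich proteoglycan of supporting cells and of growth cartilage. It had 91.9, 109 and 124 CPM in knock-in libraries, against 73.2, 109 and 104 CPM in wild-type libraries. Wild-type replicate 1 was lowest and the library labelled knock-in replicate 3 highest, as for Hey2. Epyc averaged 108 ± 15.8 CPM in knock-in and 95.4 ± 19.4 CPM in wild type (SD, n = 3 each), a log2 fold change of 0.18 (SE 0.163; edgeR quasi-likelihood adjusted p = 0.971), or 0.07 without the library labelled knock-in replicate 3.

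The authors' own comparison gave nearly the same sizes. In the authors' deposited table the log2 fold changes ran from -0.19 for Hes1 to 0.20 for Hey2, with 0.17 for Fgfr3 and for Epyc, 0.13 for Sox2, 0.04 for Notch1, -0.03 for Jag1, -0.07 for Lgr5 and -0.08 for Prox1. Fgfr3, Epyc, Prox1, Gata3 and Notch1 share exon bases with other annotated genes, mostly on the opposite strand (Prox1os for Prox1, G630022F23Rik for Fgfr3, Gm10754 for Epyc). Whether the counting used strand is not stated in the labels or files, and reads of these neighbours may be included in their values.

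Every library held some of the extreme values, with the most in wild-type replicate 1 and the library labelled knock-in replicate 3. Wild-type replicate 2 came next, with the highest value of 3 genes and the lowest of 1. Wild-type replicate 1 held the lowest value of 4 of the 10 genes and the highest of 2. Against the wild-type mean it stood at a log2 deviation of -0.51 for Sox2, -0.38 for Prox1, -0.36 for Epyc and -0.25 for Hey2, and at 0.46 for Hes1 and 0.29 for Notch1. The library labelled knock-in replicate 3 held the highest value of 3 genes and the lowest of 2: its deviations were 0.48 for Hey2, 0.39 for Fgfr3 and for Epyc, -0.44 for Gata3 and -0.29 for Lgr5. In wild-type replicate 1 and in the library labelled knock-in replicate 3, some of the 10 genes were high and others low. Their summed level was 313.2, 333 and 342 CPM in knock-in libraries, against 312.6, 326.8 and 299.7 CPM in wild-type libraries, and these sums overlapped.

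**Figure D3:**
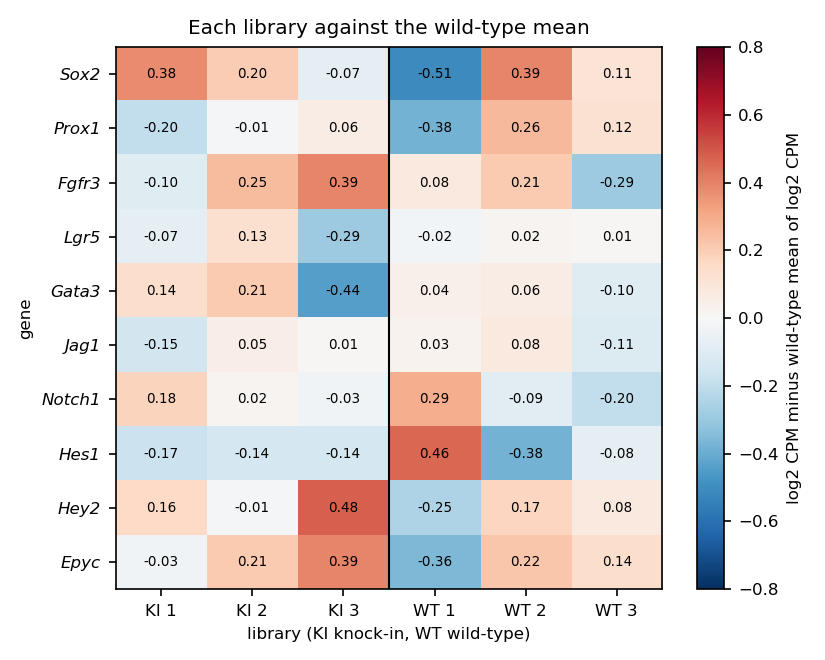
Log2 deviation of each gene (down the page) in each library (across, knock-in left of wild type) from the mean of the 3 wild-type libraries. Wild-type replicate 1 ranges from -0.51 for Sox2 to 0.46 for Hes1, and the library labelled knock-in replicate 3 from -0.44 for Gata3 to 0.48 for Hey2.

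Levels can be compared between genes only per length, and were taken as CPM per kilobase of merged exons. Epyc was by far the most abundant, with 42.2 ± 6.18 in knock-in and 37.3 ± 7.58 in wild type (SD, n = 3 each), and its lowest library lay above the highest of any other of the 10. Jag1 (7.67 ± 0.560 in knock-in, 7.83 ± 0.529 in wild type), Hes1 (6.59 ± 0.0845 in knock-in, 7.52 ± 2.30 in wild type) and Notch1 (6.75 ± 0.532 in knock-in, 6.54 ± 1.21 in wild type) came next, and neighbours among these 3 overlapped. Fgfr3 followed at 3.81 ± 0.638 CPM per kilobase in knock-in and 3.38 ± 0.586 in wild type, apart from Notch1 above and from Sox2 below. Sox2 (2.33 ± 0.356 in knock-in, 2.12 ± 0.632 in wild type), Gata3, Hey2, Lgr5 and Prox1 (1.01 ± 0.0939 in knock-in, 1.06 ± 0.233 in wild type) formed the low end, where each neighbour in the order overlapped the next. The order within these bands depended on the length used: over the longest transcript, Hes1 stood at 10.4 CPM per kilobase in wild type and passed Jag1 at 8.13, and Sox2 at 2.12 ranked below Hey2 at 2.63.

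The rest of the Notch pathway held no called gene either. Of 57 further pathway genes (ligands, receptors, processing and transcription), 52 were tested, and edgeR's quasi-likelihood test called 0 of them, with or without the library labelled knock-in replicate 3. DESeq2 and limma-voom also called 0. At an unadjusted p under 0.05, 1 was higher and 1 lower, 3.85% beside 4.50% of all genes. The groups did not overlap for 5 genes, 2 above and 3 below, which is 9.62% beside 8.72% of all genes. Log2 fold changes were positive in 24 and negative in 28, with a median of -0.01. Without the library labelled knock-in replicate 3, they were positive in 20 and negative in 32, with a median of -0.02.

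Among the receptors, Notch2, used in vessel walls and many other tissues, was more abundant than Notch1. It had 346, 326 and 333 CPM in knock-in libraries, against 391, 326 and 287 CPM in wild-type libraries. Per kilobase it stood at 31.1 ± 0.910 in knock-in and 31.0 ± 4.87 in wild type (SD, n = 3 each), with a log2 fold change of 0.00. Notch3, the receptor of mural cells, stood at 4.30 CPM per kilobase in knock-in and 4.24 in wild type (log2 fold change 0.02).

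Notch4, a receptor of endothelium, was the least abundant receptor, at 1.45 CPM per kilobase in knock-in and 1.11 in wild type, and the only one of the 4 receptors whose groups did not overlap. It had 11.6, 11.5 and 12.0 CPM in knock-in libraries, against 8.84, 10.2 and 7.69 CPM in wild-type libraries. All knock-in libraries lay above all wild-type libraries. The log2 fold change was 0.39 (SE 0.134), with an unadjusted p of 0.0153 and an adjusted p of 0.966 in edgeR's quasi-likelihood test, so it was not called. It was 0.37 without the library labelled knock-in replicate 3.

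Among the ligands, Dner, a ligand of neurons, stood at 5.94 CPM per kilobase in knock-in and 6.07 in wild type. Jag2 (1.34 in knock-in, 1.37 in wild type), Dll4, the ligand of endothelial tip cells (1.36 in knock-in, 1.15 in wild type), and Dll1, the Delta ligand of nascent hair cells (0.935 in knock-in, 0.903 in wild type), were all below Jag1 at 7.67 in knock-in and 7.83 in wild type. Dlk2 was lower still, at 0.648 CPM per kilobase in knock-in and 0.609 in wild type (log2 fold change 0.07). Dll3 had 2 counts over the knock-in libraries and 1 over the wild-type libraries and was not tested.

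Dlk1, which encodes a non-canonical ligand and inhibitor of fat cell differentiation, had 0.543, 0.478 and 1.04 CPM in knock-in libraries, against 1.89, 4.74 and 0.884 CPM in wild-type libraries. The library labelled knock-in replicate 3 lay above wild-type replicate 3, so the groups overlapped, and wild-type replicate 2 was far above the rest. Its log2 fold change was -1.88 (SE 0.590; unadjusted p = 0.0103, edgeR quasi-likelihood adjusted p = 0.966) and lay between -2.31 and -1.0 over the alternatives tried, with -2.27 without the library labelled knock-in replicate 3.

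**Figure D4:**
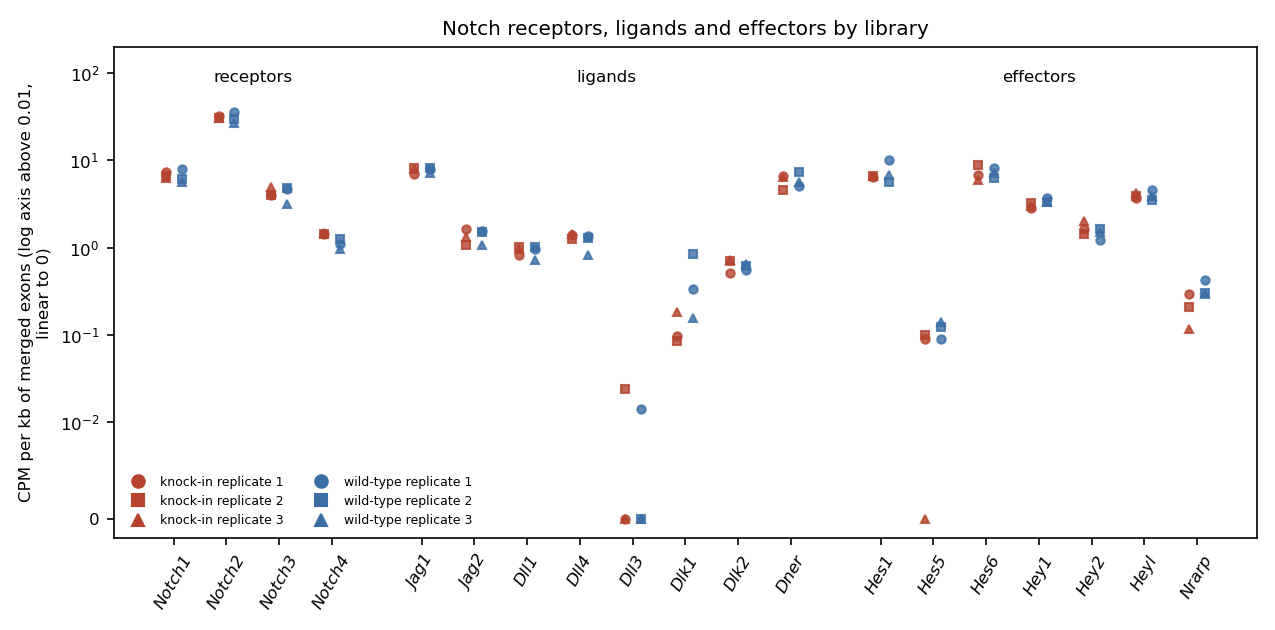
CPM per kilobase of merged exons of Notch ligands, receptors and effectors on an axis that is logarithmic above 0.01 and linear below it, knock-in libraries left of wild-type libraries for each gene, points for libraries. Notch2 is the highest of the receptors, and Jag1 lies above Jag2, Dll1, Dll4 and Dlk2.

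The genes that process receptors and ligands showed no called change, with 26 tested, 10 positive and 16 negative log2 fold changes and 0 at an unadjusted p under 0.05. The smallest unadjusted p were those of Adam10, the protease of the first activating cut (log2 fold change -0.21, edgeR quasi-likelihood adjusted p = 0.966), Fbxw7, a ubiquitin ligase subunit that ends the signal (-0.19), and Dtx2, a Deltex ubiquitin ligase (0.17).

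In the nuclear arm 17 of 21 genes were tested, and 0 were called or reached an unadjusted p under 0.05. Log2 fold changes were positive in 8 and negative in 9, with a median of -0.03. The groups did not overlap for 1 gene above and 3 below, beside 4.71% and 4.01% of all genes. These genes are among those described next. Nrarp, a Notch target that feeds back on the Notch complex, had 0.755, 0.546 and 0.303 CPM in knock-in libraries, against 1.09, 0.774 and 0.764 CPM in wild-type libraries. All 3 knock-in libraries were below all wild-type libraries, and the log2 fold change was -0.65 (SE 0.346; unadjusted p = 0.0920, edgeR quasi-likelihood adjusted p = 0.966), or -0.40 without the library labelled knock-in replicate 3. Hey1, the relative of Hey2, had 9.21, 10.6 and 9.93 CPM in knock-in libraries, against 12.1, 10.9 and 10.8 CPM in wild-type libraries, also without overlap (log2 fold change -0.18, edgeR quasi-likelihood adjusted p = 0.966). Rbpj, the DNA-binding partner of Notch, was at 49.4, 52.7 and 50.2 CPM in knock-in libraries, against 55.2, 55.2 and 54.1 CPM in wild-type libraries, a log2 fold change of -0.11 (edgeR quasi-likelihood adjusted p = 0.966). Hey1 had -0.19 and Rbpj -0.10 without the library labelled knock-in replicate 3. Hey1 and Rbpj were picked out after their values were seen. The co-repressor gene Tle1 lay above in all knock-in libraries (0.21). Hes5, the Hes gene of developing supporting cells, had 4, 4 and 0 counts in knock-in libraries, against 3, 5 and 8 counts in wild-type libraries, too few to test.

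Partners of the identity and receptor genes were read from 3 further lists, and edgeR's quasi-likelihood test, DESeq2 and limma-voom each called 0 of their genes. Around Fgfr3, 11 of 13 FGF pathway genes were tested, and 1 reached an unadjusted p under 0.05, beside 4.50% of all genes. Log2 fold changes were positive in 3 and negative in 8. In 3 genes all knock-in libraries lay below all wild-type libraries, beside 4.01% of all genes, and in 0 above. Without the library labelled knock-in replicate 3, 3 of the 11 were at an unadjusted p under 0.05, all lower. That was 27.3% of them, beside 3.88% of all genes. Spry4, an inhibitor that FGF signalling induces, had 8.57, 6.93 and 8.11 CPM in knock-in libraries, against 11.5, 10.9 and 10.2 CPM in wild-type libraries. Every knock-in library was below every wild-type library, with a log2 fold change of -0.46 (SE 0.132; unadjusted p = 0.00635, edgeR quasi-likelihood adjusted p = 0.966) and -0.48 without the library labelled knock-in replicate 3. The receptor Fgfr4 had 0.37 and the ligand Fgf10 -0.41, neither at an unadjusted p under 0.05. Fgf8, the ligand of inner hair cells that acts on Fgfr3 in development, had 1 count over each group, and Fgf20, a prosensory ligand, had no count in knock-in libraries, which allows up to 0.0345 CPM by a floor of 3 counts over the group, and 3 counts in wild-type libraries.

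Around Lgr5, 12 of 13 genes were tested, and 1 reached an unadjusted p under 0.05, beside 4.50% of all genes. Lgr6, a related R-spondin receptor that marks inner pillar cells, had 17.4, 24.0 and 19.1 CPM in knock-in libraries, against 15.2, 16.1 and 13.7 CPM in wild-type libraries. All 3 knock-in libraries were above, with a log2 fold change of 0.43 (SE 0.139; unadjusted p = 0.0124, edgeR quasi-likelihood adjusted p = 0.966) and 0.46 without the library labelled knock-in replicate 3. The R-spondin genes Rspo3 and Rspo2 had 0.19 and -0.26. Beside Sox2 and Gata3, 8 of 8 genes were tested and 0 reached an unadjusted p under 0.05. Without the library labelled knock-in replicate 3, 1 of the 8 did, higher in knock-in. That was 12.5% of them, beside 3.88% of all genes. Sox9 and Sox21, both of the Sox family, had log2 fold changes of 0.19 and 0.30.

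Markers of supporting cells outside the 10 genes check the tissue. All 19 were detected and tested, and 0 were called by edgeR's quasi-likelihood test, DESeq2 or limma-voom. At an unadjusted p under 0.05, 3 of the 19 were higher and 1 lower, beside 2.54% higher and 1.96% lower over all genes. Ceacam16, a tectorial membrane protein gene, had 55.8, 64.1 and 63.1 CPM in knock-in libraries, against 45.7, 57.8 and 48.2 CPM in wild-type libraries, a log2 fold change of 0.27. Otoa, which encodes otoancorin, had 0.25, and Cdkn1b, the cell cycle inhibitor that keeps supporting cells quiescent, had -0.29. Ceacam16 had 0.24, Otoa 0.27 and Cdkn1b -0.26 without the library labelled knock-in replicate 3, where 1 of the 19 markers was at an unadjusted p under 0.05. That was 5.26% of them, beside 3.88% of all genes. The summed level of the list was 1991 to 2189 CPM in knock-in libraries and 1813 to 2006 CPM in wild-type libraries, and the ranges overlapped. Of 14 hair cell markers 13 were tested, and edgeR, DESeq2 and limma-voom each called 0. Of the 13, 2 were at an unadjusted p under 0.05, beside 4.50% of all genes. They were Cib2 (log2 fold change 0.48) and Strc (0.45), and Pou4f3 (-0.31) was not. These values were 0.29 for Cib2, 0.57 for Strc and -0.32 for Pou4f3 without the library labelled knock-in replicate 3. In that set 14 hair cell markers were tested and 2 were at an unadjusted p under 0.05, both higher. That was 14.3% of them, beside 3.88% of all genes. Hair cell markers summed to 196.2 to 205.9 CPM in knock-in libraries and 184.6 to 202.5 CPM in wild-type libraries. Atoh1, the hair cell fate gene that Notch represses in development, had 4, 10 and 5 counts in knock-in libraries, against 8, 11 and 8 counts in wild-type libraries and was not tested.

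Other cells that use these genes were read from marker lists; edgeR's quasi-likelihood test and limma-voom called 0 of their genes, DESeq2 called 2 (Col10a1 and Matn3, of cartilage), and no list had a defining marker at 0. For endothelium, which uses Notch1, Jag1 and Hey2, the summed level was 343 to 445.9 CPM in knock-in libraries and 366 to 410.4 CPM in wild-type libraries, with log2 fold changes of -0.15 for Cdh5, -0.12 for Erg and 0.13 for Egfl7. For lymphatic endothelium, which uses Prox1, it was 125.7 to 156.2 CPM in knock-in libraries and 132.2 to 160.6 CPM in wild-type libraries (Lyve1 0.34, Reln -0.14, Mmrn1 0.07). For mural cells it was 467.2 to 674.7 CPM in knock-in libraries and 526.7 to 653 CPM in wild-type libraries, where Myh11 had -0.54 (unadjusted p = 0.0151 in edgeR's quasi-likelihood test), Cspg4 0.21 and Kcnj8 -0.20. No other gene of these 3 lists reached an unadjusted p under 0.05, a level that 4.50% of all genes reached. Myh11 had -0.75 without the library labelled knock-in replicate 3. In that set 3 mural cell markers, 33.3% of them, were at an unadjusted p under 0.05, all lower, beside 3.88% of all genes. Endothelial markers had 5 positive and 5 negative log2 fold changes with all libraries. Without the library labelled knock-in replicate 3 they had 0 positive and 10 negative, with a median of -0.11 and 0 at an unadjusted p under 0.05. With all libraries, the summed levels of the 2 groups overlapped in each of these lists.

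Log2 fold changes of nerve markers were mostly negative. Of 10 Schwann cell markers, a cell type that can express Sox2, 3 were positive and 7 negative, with Prx at -0.54 (unadjusted p = 0.0131 in edgeR's quasi-likelihood test) and Pmp22 at -0.33 (unadjusted p = 0.111). At an unadjusted p under 0.05, 2 of the 10 were lower and 0 higher, beside 1.96% lower and 2.54% higher over all genes. Schwann cell markers summed to 615.3 to 856.2 CPM in knock-in libraries and 629.7 to 950.7 CPM in wild-type libraries. All 9 neuron markers were negative, with a median of -0.33 beside 0.000822 over all genes, though 0 reached an unadjusted p under 0.05 (Nefh -0.42, Tubb3 -0.42, Slc17a7 -0.19). The medians without the library labelled knock-in replicate 3 were -0.28 for Schwann cell and -0.32 for neuron markers, with Prx at -0.63 and Nefh at -0.51. Neuron markers summed to 376.6 to 594.1 CPM in knock-in libraries and 499.3 to 739.8 CPM in wild-type libraries. T cell markers, relevant to Gata3 and Notch1, summed to 35.54 to 52.88 CPM in knock-in libraries and 33.95 to 61.94 CPM in wild-type libraries (Cd8a 0.38, Il7r -0.21, Cd4 0.18). Erythroid genes summed to 8680 to 11551 CPM in knock-in libraries and 8097 to 12568 CPM in wild-type libraries (Slc4a1 -0.30, Hba-a1 -0.22).

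Log2 fold changes of cartilage and fat markers were mostly positive. Of 14 cartilage markers, relevant to Epyc and Fgfr3, 13 were positive and 8 were at an unadjusted p under 0.05, with Col10a1 of hypertrophic cartilage at 3.71 (edgeR quasi-likelihood adjusted p = 0.196), Matn3 at 3.81 and Acan, the aggrecan gene, at 1.14. Without the library labelled knock-in replicate 3, 12 were positive and 7 at an unadjusted p under 0.05, with Col10a1 at 3.68, Matn3 at 3.78 and Acan at 1.01. Over all genes, 4.50% were at an unadjusted p under 0.05 with that library and 3.88% without it. The cartilage markers summed to 494.6, 876.9 and 766.8 CPM in knock-in libraries, against 424, 586.2 and 428.3 CPM in wild-type libraries. Epyc was lowest in wild-type replicate 1, at 73.2 CPM, where this sum was lowest, and highest in the library labelled knock-in replicate 3, at 124 CPM, where it was not the highest. All 12 adipocyte markers were positive (Cidec 2.08, Plin1 1.61, Pparg 0.74), each at an unadjusted p under 0.05 and none called by edgeR. They summed to 825.2, 406.5 and 2096 CPM in knock-in libraries, against 232.6 to 452 CPM in wild-type libraries. Far above the rest was the library labelled knock-in replicate 3. Without it all 12 were still positive but 8 were at an unadjusted p under 0.05, the median log2 fold change was 0.87, against 1.80 with it, and Cidec had 1.21, Plin1 0.97 and Pparg 0.51. Both sums overlapped between the groups, but some single markers did not. In 4 of the 14 cartilage and 4 of the 12 adipocyte markers all knock-in libraries lay above all wild-type libraries, beside 4.71% of all genes. Col10a1 had 9.96, 83.6 and 50.4 CPM in knock-in libraries, against 4.14, 3.33 and 3.54 CPM in wild-type libraries. The part of these cell types in the values of the 10 genes was not tested.

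**Figure D5:**
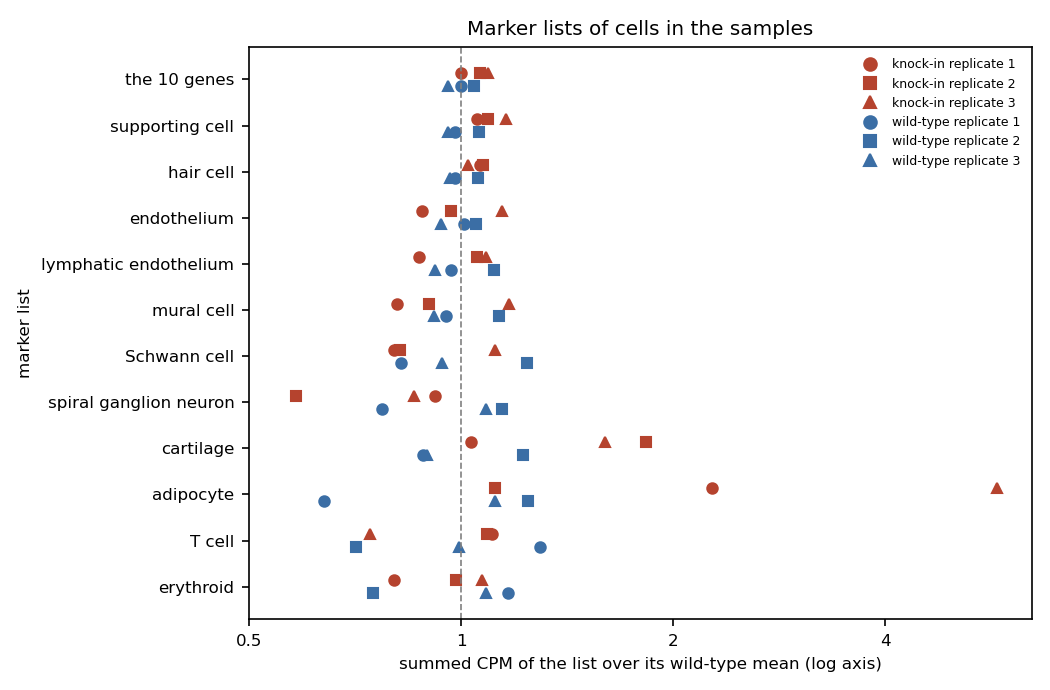
Summed TMM-scaled CPM of each marker list in each library, divided by the mean of the wild-type libraries, on a log axis; knock-in libraries are drawn above wild-type libraries within a list. The sums of every list overlap between the groups, those of the cartilage list (494.6 to 876.9 CPM in knock-in, 424 to 586.2 CPM in wild type) and the adipocyte list among them.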

How the data were processed

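Total RNA of 6 cochleae, 3 knock-in and 3 wild-type, was depleted of ribosomal RNA and copied with random primers, per the labels' protocols. Reads were mapped to GRCm38 (GENCODE vM11) with STAR 2.5.2 and compared with DESeq2, per the submitters' processing notes. Neither the program that counted reads nor its handling of strand is named in the labels or files.

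The authors deposited whole-number read counts per gene, with no normalization. Their deposited DESeq2 table gives p-values, a score for the test, the log2 fold change and, as a signal, the mean of size-factor scaled counts. The deposited regularized log values were not used. The count table held 48733 rows; the 24 that are spike-in or transgene sequences (0.00151% to 0.0045% of counts) stayed out of library sizes and tests. Neo and Hgf counts were read from it to check the labels. Names and exon lengths came from GENCODE M21, on the same build, for 48349 of 48709 identifiers.

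The test was that of edgeR 4.0.16 under R 4.3.3 (filterByExpr, TMM, two-sided quasi-likelihood F test, group as the only term), with Benjamini-Hochberg adjustment over 20733 genes and a threshold of 0.05. The standard error is the fold change over the square root of F. Levels are TMM-scaled CPM. The test was checked on simulated data. There edgeR found 46 of 50 genes at a fold of 2 and 46 of 50 at a fold of 0.5, and called 27 of 20658 unchanged genes. The share of unchanged genes among all simulated calls was above the threshold of 0.05. Changes were simulated only in genes with high mean counts. Many more genes changed there than the 7 called in these data, which makes the adjusted threshold easier to pass. The simulated recovery is therefore not the recovery to be had in these data. Smaller changes were not simulated. Alternatives were other normalizations and filters, DESeq2 1.42.0, limma-voom (limma 3.58.1), an Xist covariate, leaving mitochondrial genes out, leaving each library out and a 0.1 threshold. The design names 3 mice a group. All 15 pairs of libraries differed by more than counting noise over genes with a mean count of at least 10 (chi-square per degree of freedom 21.0 to 49.0). The floor is 3 counts over a group and covers counting error only; intervals of 95% cover the spread between these libraries.

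The 10 genes and the lists were chosen with earlier results of these data known. The rule named the 10 genes, Hgf, the measured Notch ligands and receptors, and up to 3 genes with the smallest unadjusted p in each other list. Some genes that the rule selects are not reported here.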

Additional observations from a re-analysis of the deposited data

Results flagged for a closer look

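The Neo cassette sequence lies outside the gene rows tested, and it was above the wild-type level in 2 knock-in libraries: knock-in replicate 1 had 2.06 CPM of it and knock-in replicate 2 had 6.99 CPM, against 0.207, 0.275 and 0.236 CPM in wild-type libraries. The library labelled knock-in replicate 3 had 0.208 CPM, within the wild-type range, while its Hgf level of 10.5 CPM lay with the other knock-in libraries. None of the 10 supporting cell and Notch genes had an adjusted p under 0.999 in edgeR's quasi-likelihood test without that library.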

How the results depend on the processing

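No paired analysis was possible because the labels give no replicate number that the groups share; numbers were given in accession order. None of the 10 genes was called under any alternative, with a lowest adjusted p of 0.616 over 140 refitted values by edgeR, DESeq2 or limma-voom. The sign did not turn in 132 of them, which include every refit of Gata3, whose 0.00 cannot turn. It turned in 6 genes, each time by leaving out 1 library: the log2 fold change then ranged from -0.07 to 0.34 for Sox2, -0.24 to 0.05 for Prox1, -0.18 to 0.03 for Lgr5, -0.09 to 0.03 for Jag1, -0.06 to 0.20 for Notch1 and -0.36 to 0.07 for Hes1. Fgfr3, Hey2 and Epyc stayed positive. Gata3, at 0.00, had no direction to keep and ranged from -0.12 to 0.17. Among other named genes the same happened to Dlk2 (-0.01 to 0.22), Notch3 (-0.16 to 0.13), Egfl7 (-0.01 to 0.24), Mmrn1 (-0.04 to 0.19), Il7r (-0.42 to 0.01) and Hba-a1 (-0.40 to 0.05). Calls also changed for named genes outside the 10: the log2 fold change of Hgf passed with no filter (edgeR adjusted p = 0.0380) and in DESeq2 (adjusted p = 0.0116), Col10a1 and Matn3 passed with no filter, in DESeq2 and without knock-in replicate 1, Acan with no filter and without knock-in replicate 1, and Cidec and Plin1 with no filter. The median over the 10 genes lay between -0.04 and 0.07 with 1 library left out. Groups of the 10 genes that did not overlap numbered 0 to 2 with 1 library left out, beside 14.6% to 26.1% of all genes in those sets. Over all genes the count of 7 became 76 with no filter, 29 with DESeq2 and 11 with an Xist covariate, and 3 to 21 with 1 library left out (21 without knock-in replicate 1, 3 without the library labelled knock-in replicate 3, 4 when wild-type replicate 1 and 3 when wild-type replicate 2 was left out). Of the genes in the lists, 0 were called, but 9 with no filter, 2 with DESeq2 and 0 to 3 with 1 library left out (3 without knock-in replicate 1). Over the longest transcript the wild-type CPM per kilobase was 5.69 for Fgfr3, 2.40 for Lgr5, 2.46 for Gata3, 9.81 for Notch1, 10.4 for Hes1 and 2.63 for Hey2. The causes were not tested. With 3 libraries a group, differences within the intervals given are not excluded by these counts.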
